A study of Oreochromis mossambicus with 12 samples.

Results

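Solute carriers are membrane proteins that move amino acids, sugars, metals, vitamins, nucleotides and ions across the plasma membrane or the membranes of organelles. Most are secondary carriers or exchangers that use an existing ion or substrate gradient, and families are numbered by sequence relatedness, so that the members of a family usually share a kind of substrate. In mammalian leukocytes they supply growth and biosynthesis on activation, and phagocytes use the carriers of iron, zinc and copper to set how much metal reaches a bacterium.

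The genes described here are those whose symbol follows the solute carrier pattern (slc, a family number, the letter a, a member number) and whose mean over all 12 libraries was at least 1 FPKM, fragments counted per length of transcript and scaled for library size. Of 169 such symbols in the table, 94 passed this minimum, among 12423 of 28921 symbols that passed it in all. Of the 94, 92 are transporters, and slc7a6os and slc4a1ap carry a solute carrier name without being one. Just inside the minimum were slc22a17, slc37a4 and slc25a26, with means of 1.31, 1.503 and 1.68 FPKM, and just outside it were slc25a38, slc20a2 and slc46a1, with 0.981, 0.951 and 0.842 FPKM. The 75 symbols under the minimum reached at most 2.6 FPKM in any library, and 10 of them were listed at 0 in all. All 6 facilitated glucose transporter (slc2) symbols were among the 75. Since 64.9% of the table's symbols are LOC identifiers without a name, carriers held under such identifiers were not analysed here, and duplicated fish genes were described under the symbol given.

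RNA was sequenced from head-kidney leukocytes of the tilapia Oreochromis mossambicus, that is, white cells of the organ where bony fish make most blood cells, kept in primary culture. All groups shared the culture conditions, a rat tail collagen coating and RPMI medium with penicillin, streptomycin and tilapia serum, so every cell met antibiotics and serum proteins as well. Per the labels, the co-treatment group received sodium nitrite at 1000 μM together with Streptococcus agalactiae killed by heat, given at an MOI (bacteria per cell) of 1. The bacteria group received the heat-killed cells alone at an MOI of 1, the nitrite group sodium nitrite alone at 1000 μM, and the control group PBS. Cells were collected after 12 h, with 3 libraries in each of the 4 groups. Whether replicates are different fish, different cultures or repeat preparations is not stated, so p-values reflect only how these libraries spread, and that spread may be technical.

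The libraries held leukocyte transcripts, with neutrophil markers (3 of 7 listed symbols in the table) summing to 787 to 1246 FPKM in co-treatment, 701 to 1322 FPKM with bacteria, 376 to 689 FPKM with nitrite and 437 to 641 FPKM in PBS libraries. Of the kidney tubule markers, pax2 and cdh17 were at or under 0.1 FPKM in every library, and cubn averaged 0.483 FPKM in co-treatment, 0.433 FPKM with bacteria, 2.23 FPKM with nitrite and 2.81 FPKM in PBS libraries. Markers of several cell types moved with the bacteria. The eosinophil granule gene epx averaged 93.2 FPKM in co-treatment, 126 FPKM with bacteria, 5589 FPKM with nitrite and 5953 FPKM in PBS libraries, and the macrophage receptor csf1r averaged 1.68, 2.37, 52.2 and 49.6 FPKM in the same order. Macrophage markers (3 of 8 listed symbols in the table) summed to 493 to 638 FPKM in co-treatment, 584 to 709 FPKM with bacteria, 705 to 855 FPKM with nitrite and 738 to 1327 FPKM in PBS libraries, and 2 of the 3 fell with bacteria. B cell markers (4 of 5) summed to 28.0 to 39.3, 24.1 to 34.5, 90.6 to 126 and 90.4 to 164 FPKM in that order, and 1 fell. That was btk, which held most of the sum (25.6, 24.6, 100.6 and 112 FPKM on average), while cd79a, cd79b and pax5 averaged under 7 FPKM in every group and did not pass. Of the fibroblast markers col1a1, col1a2 and dcn were at or under 0.1 FPKM, whereas pdgfrb (1.02 FPKM in co-treatment, 0.877 FPKM with bacteria, 10.97 FPKM with nitrite and 9.12 FPKM in PBS libraries) and tagln (18.0, 15.0, 59.3 and 47.3 FPKM in the same order) fell with bacteria. The thrombocyte markers itga2b, gp1bb and mpl, the progenitor markers myb and cebpa, the erythroid marker rhag, the tubule marker cubn and the endothelial markers stab1 and stab2 fell with bacteria as well, and the endothelial flt1 rose (52.0, 57.4, 1.82 and 0.973 FPKM). The neutrophil markers ncf1 and ncf4 rose. The neutrophil mmp9, the thrombocyte nfe2, the T cell markers cd3e, lck and cd247 and the interrenal star did not pass. Over all genes 26.3% fell and 10.7% rose with bacteria by the test given below, and this background applies to each of these marker calls. The part that these marker shifts had in the carriers' changes was not tested. In bulk RNA, fewer cells of a type and less RNA per cell cannot be told apart, and this holds for every carrier below. PBS replicate 1 stood apart from the other libraries: 4.77% of its summed FPKM came from ribosomal protein genes, where the other PBS libraries had 16.8% and 15.6%, and 179 transcripts reached 1 FPKM in it alone, 3 of them from the genes described here. Where a call described below was lost without it, this is said beside the call.

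The 94 genes covered a wide range of levels. Their median mean level was 11.1 FPKM, against 8.67 FPKM over all genes tested, 51 of them averaged at least 10 FPKM, and 3 averaged at least 100 FPKM. Those 3 were slc25a3, the mitochondrial phosphate carrier (278 FPKM), slc6a6, the taurine transporter (116 FPKM), and slc25a35, a mitochondrial carrier whose substrate is not settled (104 FPKM). By substrate, amino acid carriers (16 genes) held 27.8% of the summed level, mitochondrial carriers (17 genes) 26.6% and carriers of metals and heme (17 genes) 14.3%. Summed over the 94 genes, the level was 2035 to 2107 FPKM in co-treatment libraries, 1957 to 2017 FPKM with bacteria, 1803 to 1863 FPKM with nitrite and 1573 to 1746 FPKM in PBS libraries. The ranges of these sums did not overlap between the 4 groups. The main transcript of slc25a35 alone averaged 192 FPKM in co-treatment, 199 FPKM with bacteria, 10.3 FPKM with nitrite and 11.4 FPKM in PBS libraries. With this gene left out, the sums with bacteria and with nitrite would overlap, so they do not show a rise of carriers in general. As a share of each library's summed FPKM, the 94 genes, slc25a35 included, held 0.424% to 0.432%, 0.400% to 0.412%, 0.358% to 0.383% and 0.334% to 0.373% in the same order. By this measure the nitrite and PBS libraries overlapped.

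**Figure D1:**
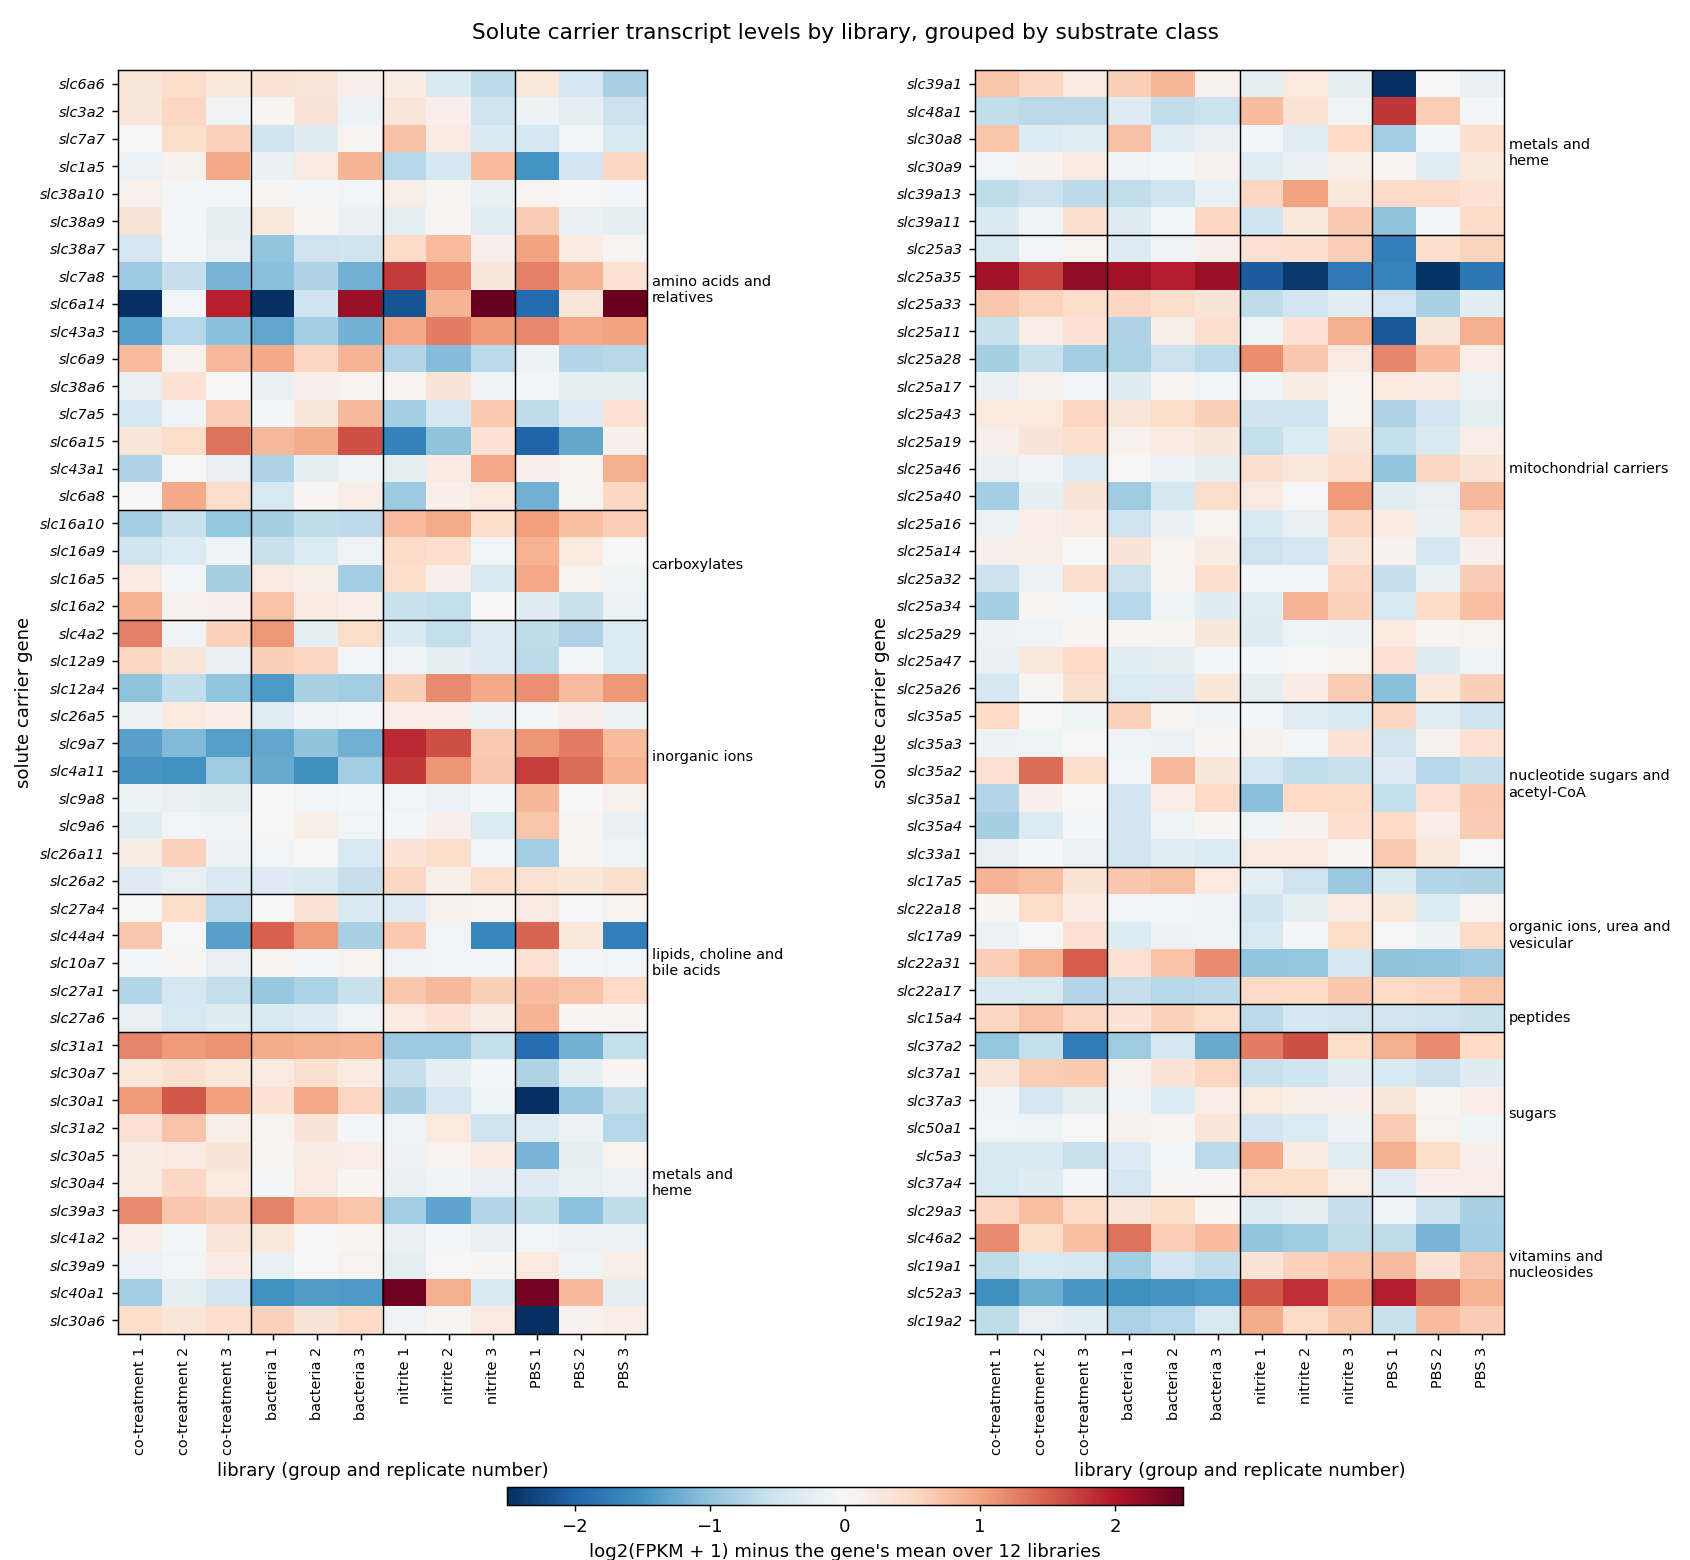
Level of each of the 92 transporters in each of the 12 libraries, as log2(FPKM + 1) minus the gene's mean over all libraries, with libraries in columns by group (co-treatment, bacteria, nitrite, PBS) and genes in rows by substrate class (red above the mean, blue below it). slc25a35 is above its mean in the 6 libraries given bacteria and below it in the other 6, slc52a3 the reverse, and slc6a14 follows the replicate number.

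Heat-killed bacteria alone changed 39 of the 94 genes relative to PBS, 17 higher and 22 lower. The count is 41.5% of the genes, near the 37.0% of all 12423 genes that passed the same test (limma, Benjamini-Hochberg adjusted p under 0.05 over all genes tested). Over all genes, 10.7% passed as higher and 26.3% as lower, and for the carriers the shares were 18.1% and 23.4%. The median log2 change was -0.05 over the carriers and -0.29 over all genes. Of the 39 calls, 25 held under every alternative. With median-ratio scaling, which moved the median of all genes from -0.29 to 0.01, 27 carriers were higher and 15 lower (16.8% and 14.0% of all genes), so the balance between rises and falls depends on the scaling. With the replicate number as a block, 27 were higher and 29 lower, 59.6% of the carriers, at a background of 53.4% of all genes. Without PBS replicate 1, 16 were higher and 22 lower, of which 15 and 20 were among the 39. The share of all genes called without that library is not given here, so these 2 counts are not read as a trait of carriers.

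Carriers of metals and heme numbered 17, of which 3 rose and 3 fell (10.7% and 26.3% of all genes). Adding the block gave 7 rises and 3 falls among these carriers, while 53.4% of all genes passed in either direction. Median-ratio scaling gave 9 rises and 1 fall, while 16.8% of all genes were higher and 14.0% lower. Quantile normalization gave 6 rises and 0 falls. Its share over all genes is not given here, so those counts are not taken as particular to metal carriers. The 3 rises counted first were in slc31a1, slc30a1 and slc39a3. slc31a1 encodes the copper importer, and in mammals brings copper into macrophages, where it can be delivered to phagosomes. Its level was 70.6, 63.5 and 66.2 FPKM in co-treatment, 57.7, 56.0 and 55.5 FPKM with bacteria, 15.5, 15.3 and 19.4 FPKM with nitrite, and 7.20, 12.5 and 19.4 FPKM in PBS libraries. All 6 libraries given bacteria lay above all 6 without. Its log2 change for bacteria against PBS was 2.13 ± 0.27 (SE, adjusted p = 0.000226), a ratio of mean FPKM of 4.32. The zinc exporter of the plasma membrane, slc30a1, had 28.8, 43.6 and 32.7 FPKM with bacteria, against 2.77, 11.3 and 14.6 FPKM in PBS libraries, without overlap (log2 change 1.98 ± 0.45, adjusted p = 0.0060). PBS replicate 1 held its lowest value. Zinc import was represented by slc39a3, which had 36.8, 26.9 and 24.9 FPKM with bacteria, against 9.54, 6.84 and 9.34 FPKM in PBS libraries (log2 change 1.67 ± 0.23, adjusted p = 0.000431). The importer slc39a3 thus rose beside the exporter slc30a1, and 11 metal carriers did not pass in either direction.

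The 3 metal carriers that fell were slc40a1, slc48a1 and slc39a13. slc40a1 encodes ferroportin, the iron exporter through which macrophages return iron to the blood. It had 1.53, 1.76 and 1.74 FPKM with bacteria, against 37.7, 11.7 and 5.19 FPKM in PBS libraries (log2 change -2.44 ± 0.70, adjusted p = 0.0196). All bacteria libraries lay below all PBS libraries, but the PBS values spread widely, and the call was lost with quantile normalization, without bacteria replicate 1 and without PBS replicate 1, where the log2 change was -1.73 ± 0.65 (adjusted p = 0.0587). The endolysosomal heme exporter slc48a1 had 4.73, 3.68 and 3.94 FPKM with bacteria, against 23.8, 10.02 and 6.0 FPKM in PBS libraries (log2 change -1.28 ± 0.38, adjusted p = 0.0229), and its call was lost in 5 of 21 alternatives. slc39a13, a zinc carrier of the early secretory pathway, had 2.95, 3.29 and 4.38 FPKM with bacteria, against 7.38, 7.40 and 6.71 FPKM in PBS libraries (log2 change -0.86 ± 0.20, adjusted p = 0.00785), a call lost with median-ratio scaling and quantile normalization. From a list of 23 other iron genes, 10 were tested, 1 rose and 3 fell: the ferrireductase steap4 rose (log2 change 4.88 ± 0.38), and the heme oxygenase hmox1 (-1.72 ± 0.38), iscu (-1.16 ± 0.30) and fxn (-0.82 ± 0.25), which serve heme breakdown and iron-sulfur clusters, fell. These 4 of 10 stand against the 37.0% of all genes that passed. From a list of 9 zinc and copper genes, 4 were tested and the copper chaperone atox1 fell (-0.47 ± 0.16), at the same background of 37.0%. In co-treatment against PBS atox1 fell as well (-0.49 ± 0.16) and atp7a rose (1.17 ± 0.23, adjusted p = 0.00289 in limma). With bacteria alone atp7a did not pass (0.51 ± 0.23, adjusted p = 0.109), and mtf1 and ccs passed in neither comparison. The fall in csf1r and epx given above moved with these carriers, and the part that the mixture of cells had in the result was not tested.

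The zinc carriers slc30a6 and slc39a1 were chosen after their values were seen. slc30a6, of the secretory pathway, had 14.2, 11.8 and 13.4 FPKM with bacteria, against 0.29, 10.04 and 10.5 FPKM in PBS libraries. The importer slc39a1 had 13.2, 15.7 and 9.17 FPKM with bacteria, against 0.60, 8.32 and 7.34 FPKM in PBS libraries. Neither passed the test (log2 change 1.37, adjusted p = 0.121, and 1.42, adjusted p = 0.0615, in limma), and for both the low PBS value came from replicate 1. Without that library the log2 changes were 0.33 ± 0.14 and 0.60 ± 0.24 (adjusted p = 0.0857 and 0.0710). With the replicate block slc39a1 passed (adjusted p = 0.0369) and slc30a6 did not (0.0818), and without PBS replicate 1 and with the block both did (0.0439 for slc30a6 and 0.0167 for slc39a1). slc39a1 also passed in 5 other alternatives and slc30a6 in 1.

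**Figure D2:**
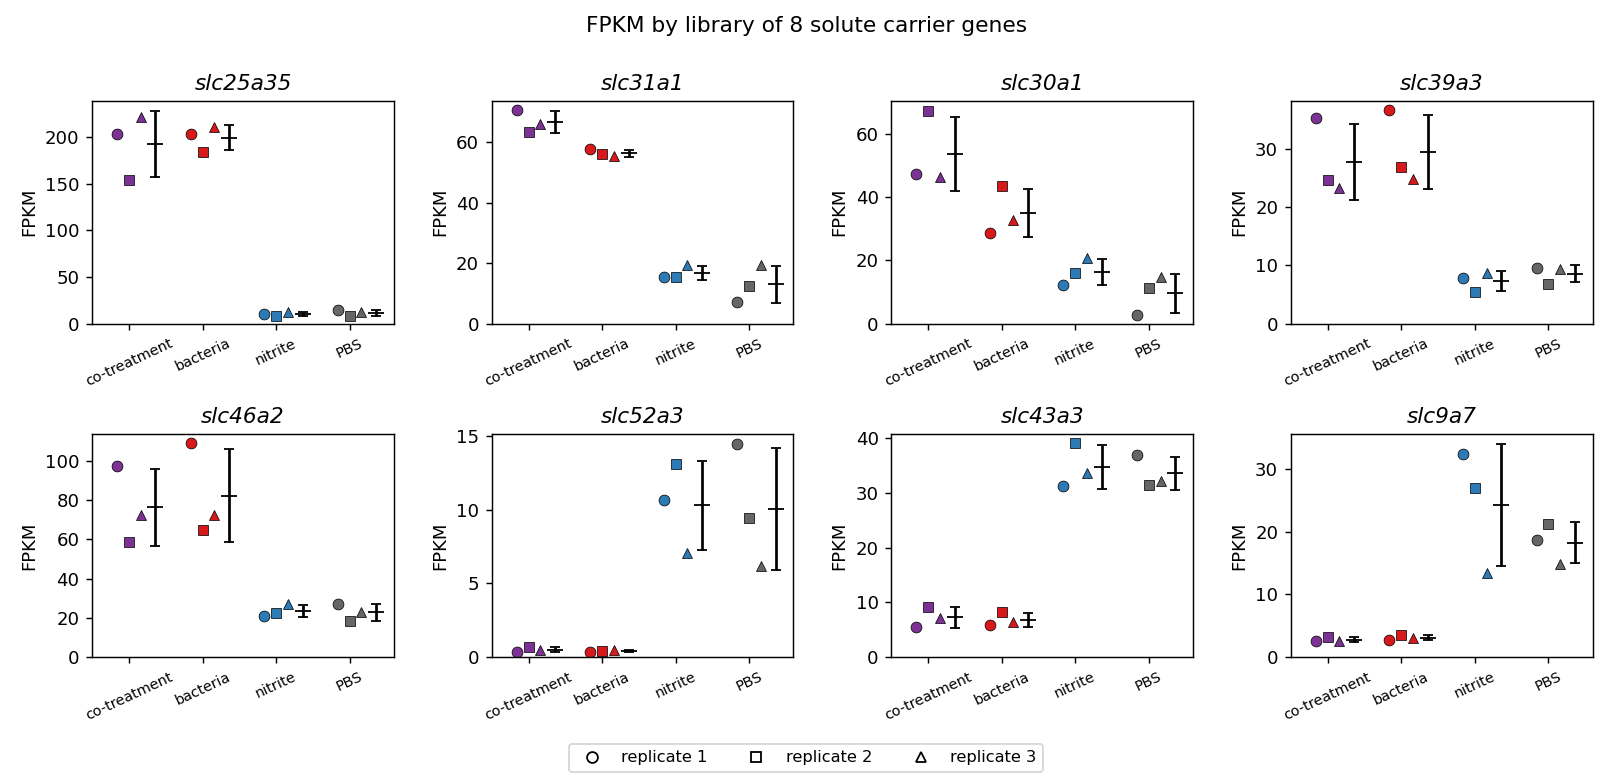
FPKM of 8 carriers in each library, with the groups from left to right co-treatment, bacteria, nitrite and PBS, points for libraries (the shape gives the replicate number) and a dash with error bars for the group mean ± SD (n = 3). slc25a35 sits at 154 to 222 FPKM in the 6 libraries given bacteria and at 7.71 to 14.0 FPKM in the other 6, and slc52a3 sits at 0.36 to 0.69 FPKM and 6.21 to 14.4 FPKM in the same libraries.

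Mitochondrial carriers (17 genes) exchange metabolites, nucleotides and ions across the inner mitochondrial membrane. Of them 3 rose and 1 fell, where 10.7% and 26.3% of all genes did. The largest change among the 94 genes on the log2(FPKM + 1) scale was in slc25a35. Its level was 203, 154 and 222 FPKM in co-treatment, 204, 184 and 211 FPKM with bacteria, 10.2, 7.92 and 12.8 FPKM with nitrite, and 14.0, 7.71 and 12.6 FPKM in PBS libraries. The 6 libraries with bacteria were higher than the 6 without by a wide gap, with a log2 change of 4.05 ± 0.24 for bacteria against PBS (adjusted p = 1.57e-06) and a ratio of means of 17.4. The pyrimidine nucleotide carrier slc25a33 had 27.7, 26.3 and 24.1 FPKM with bacteria, against 13.5, 10.4 and 15.6 FPKM in PBS libraries (log2 change 0.94 ± 0.17), and slc25a43 rose by a log2 change of 0.93 ± 0.21. slc25a28, a mitoferrin that brings iron into mitochondria, had 6.79, 8.31 and 7.55 FPKM with bacteria, against 30.7, 22.3 and 14.2 FPKM in PBS libraries (log2 change -1.39 ± 0.29, adjusted p = 0.00378). Of the value in PBS replicate 1, 25.8 FPKM belonged to a transcript listed at 0 in all other libraries, and with the highest transcript in place of the sum the call was lost. The call of slc25a28 held without PBS replicate 1. Without that library and with the block its log2 change was -1.19 ± 0.22 (adjusted p = 0.00228 in limma). The most abundant carrier, slc25a3, had 207, 243 and 282 FPKM with bacteria, against 79.2, 345 and 383 FPKM in PBS libraries. Its log2 change was 0.14 ± 0.48 (adjusted p = 0.843), and without PBS replicate 1 it was -0.59 ± 0.18 (adjusted p = 0.0279), so this library decides its direction.

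Carriers of amino acids and relatives (16 genes) included 2 rises and 3 falls (10.7% and 26.3% of all genes). With the replicate block there were 5 and 5 (53.4% of all genes in either direction). The glycine transporter slc6a9 had 33.1, 24.5 and 31.0 FPKM with bacteria, against 15.2, 9.68 and 9.87 FPKM in PBS libraries (log2 change 1.29 ± 0.24, adjusted p = 0.00233). The neutral amino acid transporter slc6a15 had 16.9, 18.4 and 30.1 FPKM with bacteria, against 1.54, 3.15 and 10.01 FPKM in PBS libraries (log2 change 2.18 ± 0.59, adjusted p = 0.0156), a call lost without bacteria replicate 3. The 2 groups did not overlap for either gene. Of the falls, slc43a3 encodes a nucleobase transporter in a family of amino acid carriers. It had 5.78, 8.18 and 6.35 FPKM with bacteria, against 37.0, 31.4 and 32.3 FPKM in PBS libraries (log2 change -2.16 ± 0.20, adjusted p = 2.85e-05). slc7a8, a light chain of the neutral amino acid exchangers, had 8.91, 10.99 and 7.84 FPKM with bacteria, against 47.5, 35.6 and 25.4 FPKM in PBS libraries (log2 change -1.83 ± 0.35), and slc38a7, a lysosomal glutamine exporter, fell by 1.10 ± 0.27 on the log2 scale, a call lost with median-ratio scaling.

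Of the amino acid carriers best known from activated mammalian lymphocytes, slc1a5, slc7a5 and slc3a2 did not pass for bacteria against PBS without the block. slc1a5, a glutamine transporter, averaged 44.6 ± 16.6 FPKM with bacteria and 28.6 ± 19.6 FPKM in PBS libraries (SD, n = 3 each), and slc7a5, the light chain of the leucine exchanger, 19.7 ± 6.29 and 13.4 ± 5.43 FPKM. Their adjusted p in limma was 0.278 and 0.335, and 0.00907 and 0.00992 with the replicate block. For slc6a6 it was 0.121 and, with the block, 0.0388, with means of 134 ± 10.5 FPKM with bacteria and 93.4 ± 36.8 FPKM in PBS libraries. slc6a6 also passed without the block with median-ratio scaling and without PBS replicate 1 (log2 change 0.88 ± 0.23, adjusted p = 0.0142, against 0.59 with it). The shared heavy chain slc3a2 averaged 90.0 ± 14.8 FPKM with bacteria and 69.6 ± 9.88 FPKM in PBS libraries (adjusted p = 0.273, 0.0665 with the block, 0.201 without PBS replicate 1, and 0.0493 without PBS replicate 1 and with the block). For co-treatment against PBS slc1a5, slc3a2 and slc6a6 passed as higher with the block, slc7a5 did not, and slc3a2 also passed with median-ratio scaling. For co-treatment against nitrite with the block, slc6a6 passed, and slc1a5, slc7a5 and slc3a2 did not. The lysosomal arginine sensor slc38a9 averaged 31.1 ± 4.82 FPKM with bacteria and 32.8 ± 12.1 FPKM in PBS libraries, and its small log2 change of -0.02 ± 0.25 took the other sign under several alternatives. From a list of 25 genes of the amino acid response and mTORC1, 18 were tested, 4 rose and 4 fell: chac1, ddit3, lamtor1 and lamtor5 rose, and ddit4, sesn1, eif2ak4 and rragc fell. The background for this count is the 37.0% of all genes that passed.

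All 5 carriers classed under vitamins and nucleosides passed the test, 2 higher and 3 lower. The class follows family numbers, so it holds slc46a2, while the nucleobase transporter slc43a3 is counted with the amino acid carriers. Over all genes 10.7% passed as higher and 26.3% as lower. The calls of slc29a3 and slc19a2 did not hold in every alternative. slc46a2, which in mice takes part in the response of skin keratinocytes to bacterial muropeptides, had 109, 64.9 and 72.6 FPKM with bacteria, against 27.0, 18.4 and 23.0 FPKM in PBS libraries (log2 change 1.79 ± 0.25, adjusted p = 0.000406). The lysosomal nucleoside transporter slc29a3 had 67.8, 74.6 and 56.9 FPKM with bacteria, against 51.0, 37.5 and 30.9 FPKM in PBS libraries (log2 change 0.75 ± 0.20, adjusted p = 0.0149), lost without bacteria replicate 1 or 2 and when fitted on the libraries of the contrast alone. The largest fall of any carrier on the log2(FPKM + 1) scale was in slc52a3, a riboflavin importer. Its level was 0.36, 0.69 and 0.45 FPKM in co-treatment, 0.37, 0.42 and 0.47 FPKM with bacteria, 10.7, 13.1 and 7.10 FPKM with nitrite, and 14.4, 9.44 and 6.21 FPKM in PBS libraries. Every library given bacteria lay below 1 FPKM, and the log2 change for bacteria against PBS was -2.89 ± 0.28 (adjusted p = 4.31e-05). The ratio of mean FPKM was 0.0419, further from 1 than that of slc25a35, since the log2(FPKM + 1) scale understates changes of low genes. The folate carrier slc19a1 fell as well (-1.24 ± 0.18), as did the thiamine carrier slc19a2 (-0.92 ± 0.32, adjusted p = 0.0429), a call that held in 5 of 20 alternatives.

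Among the 10 carriers of inorganic ions, 2 rose and 4 fell (10.7% and 26.3% of all genes). slc9a7, a sodium or potassium for proton exchanger of the Golgi and endosomes, had 2.71, 3.55 and 2.95 FPKM with bacteria, against 18.6, 21.3 and 14.9 FPKM in PBS libraries (log2 change -2.23 ± 0.28, adjusted p = 0.000219). slc4a11, a bicarbonate transporter relative, fell by 2.56 ± 0.33 on the log2 scale and the potassium-chloride cotransporter slc12a4 by 2.04 ± 0.22. The sulfate carrier slc26a2, named after its values were seen, fell by 0.77 ± 0.16, but its value in PBS replicate 1 came from another transcript than in the other PBS libraries, and with the highest transcript in place of the sum the log2 change was 0.14. Both scalings ended this call too. The call of slc26a2 held without PBS replicate 1. Without that library and with the block its log2 change was -0.80 ± 0.15 (adjusted p = 0.00206 in limma). The rises were in the chloride-bicarbonate exchanger slc4a2 (1.02 ± 0.36, adjusted p = 0.0479) and slc12a9 (0.70 ± 0.25, adjusted p = 0.0469), and their calls held in 8 and 9 of 21 alternatives. Without PBS replicate 1 the log2 changes were 1.00 ± 0.42 and 0.54 ± 0.26 and did not pass (adjusted p = 0.0852 and 0.118), and both calls held without that library and with the block.

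The remaining classes were small, and the background of 10.7% higher and 26.3% lower over all genes applies to their counts too. Carriers of carboxylates (4 genes) fell in 2 cases, slc16a10, an aromatic amino acid carrier of the monocarboxylate family (-1.51 ± 0.18), and slc16a9 (-0.70 ± 0.25, held in 5 of 21 alternatives and not without PBS replicate 1). Of 5 lipid carriers the fatty acid transporter slc27a1 fell (-1.42 ± 0.17). Of 6 sugar and sugar phosphate carriers, slc37a1 rose (0.74 ± 0.17) and slc37a2, a sugar phosphate exchanger of the endoplasmic reticulum, fell (-1.72 ± 0.37). The Golgi carrier of UDP-galactose, slc35a2, rose (0.88 ± 0.29, adjusted p = 0.0346, held in 15 of 21 alternatives), and slc33a1, which brings acetyl-CoA into the endoplasmic reticulum, fell (-0.66 ± 0.18, lost with median-ratio scaling, with quantile normalization, when fitted on the libraries of the contrast alone and without bacteria replicate 1). Of 5 organic ion carriers, the lysosomal sialic acid exporter slc17a5 (1.16 ± 0.23) and slc22a31 (1.73 ± 0.28) rose, and slc22a17, a lipocalin receptor, fell (-1.21 ± 0.17). slc22a31 averaged 3.36 FPKM with bacteria and 0.283 FPKM in PBS libraries, and slc22a17 averaged 0.37 and 2.18 FPKM. Like slc52a3, both met the minimum mean of 1 FPKM only through the groups where they were high. The direction of these calls is therefore not independent of how the genes were selected. The peptide and histidine transporter of lysosomes, slc15a4, which in mammals is needed for signalling by endosomal nucleic acid receptors, had 32.0, 38.1 and 34.1 FPKM with bacteria, against 17.8, 17.1 and 16.6 FPKM in PBS libraries (log2 change 0.97 ± 0.14, adjusted p = 0.000435). slc7a6os and slc4a1ap, the 2 genes that are not transporters, both fell (-1.35 ± 0.24 and -0.83 ± 0.19).

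**Figure D3:**
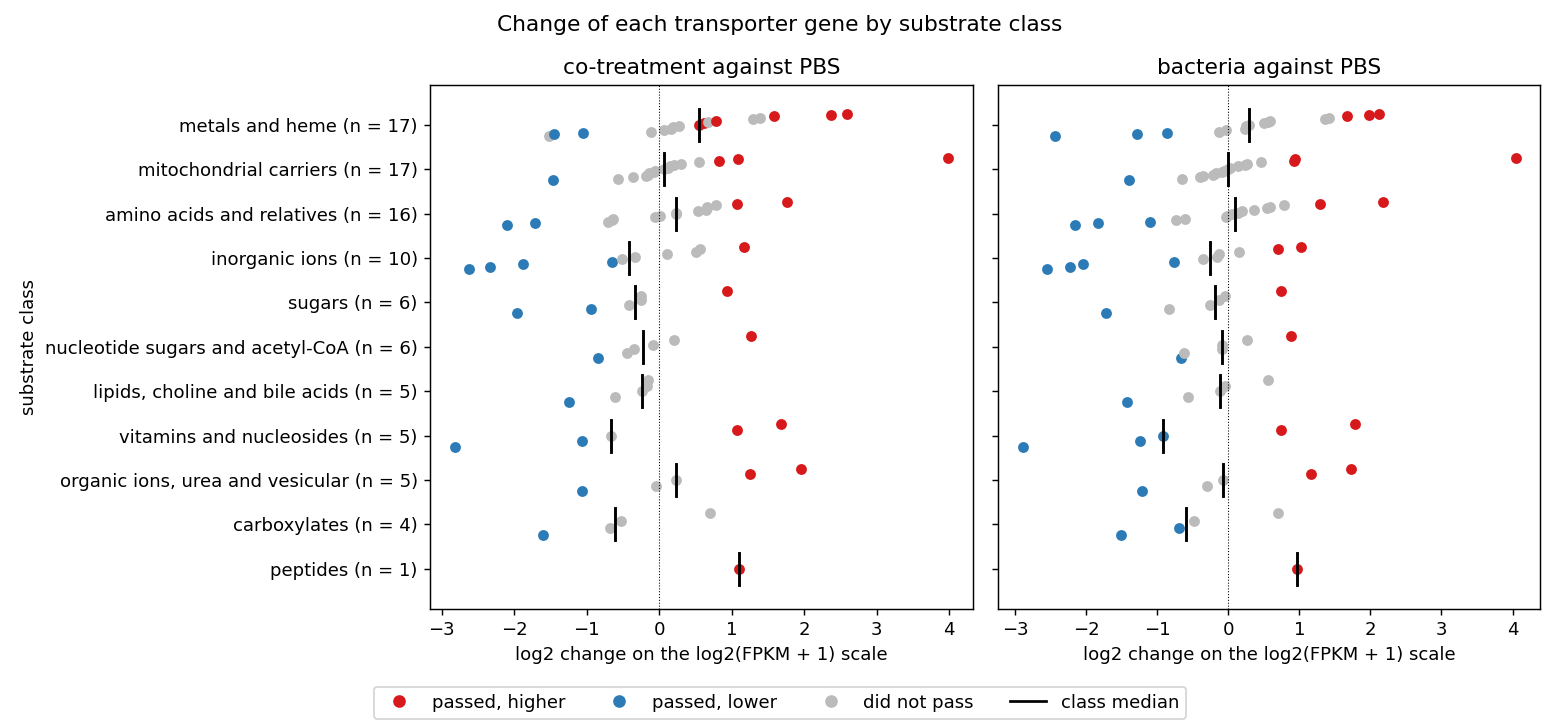
Log2 change of each carrier for co-treatment against PBS and for bacteria against PBS, by substrate class, on the log2(FPKM + 1) scale, with red points for genes that passed as higher, blue for those that passed as lower, grey for the others and a black bar for the class median. The class medians for bacteria against PBS run from -0.92 in vitamins and nucleosides to 0.97 for the single peptide carrier.

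No carrier passed for nitrite alone. In limma 0 of 94 did for nitrite against PBS, at a background of 0.0% of all genes, and 1 carrier had an unadjusted p under 0.05, as did 0.596% of all genes. With the replicate block 0 passed and 6 had an unadjusted p under 0.05, against 3.94% of all genes. The 1 was slc50a1, a sugar transporter of the Golgi named after its values were seen, with 4.19, 4.66 and 5.59 FPKM with nitrite, against 10.2, 6.71 and 5.68 FPKM in PBS libraries (log2 change -0.52 ± 0.20, adjusted p = 1.00). No carrier had all nitrite libraries above all PBS libraries (1.05% of all genes did), and 3 had them all below (slc50a1, slc9a8 and slc25a29, against 1.86% of all genes). slc31a1 and slc30a1 averaged 16.7 ± 2.34 and 16.3 ± 4.14 FPKM with nitrite and 13.1 ± 6.13 and 9.56 ± 6.11 FPKM in PBS libraries, and in both the groups overlapped. Within pairs of the same number nitrite was higher for both genes, though the slc31a1 values of number 3 were nearly equal. For slc30a1 the pairs were 12.35 against 2.77, 16.1 against 11.3 and 20.6 against 14.6 FPKM. How many of all genes do so was not computed. A missed threshold does not show that the levels are equal.

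Co-treatment changed 38 of 94 carriers relative to PBS, 19 higher and 19 lower, at a background of 39.0% of all genes (11.4% higher, 27.7% lower). It shares its PBS libraries with the comparison above. With median-ratio scaling 30 were higher and 14 lower (17.8% and 15.7% of all genes). With the block 28 were higher and 28 lower, at a background of 54.2%. Without PBS replicate 1 the counts were 17 and 21, of which 16 and 18 were among the 38, and the share of all genes is again not given. Metal carriers had 6 rises and 2 falls: besides slc31a1 (2.37 ± 0.27), slc30a1 (2.59 ± 0.45) and slc39a3 (1.58 ± 0.23), these were slc31a2, a relative of the copper importer (0.79 ± 0.24), slc30a4, a zinc carrier of vesicles (0.54 ± 0.14), and slc30a7, of the Golgi (0.62 ± 0.21). slc31a2, slc30a4 and slc30a7 were named after their values were seen, and their calls held in 16, 18 and 8 of 21 alternatives. That of slc30a7 was lost without PBS replicate 1 (0.40 ± 0.17, adjusted p = 0.0888), and those of slc31a2 and slc30a4 with the highest transcript in place of the sum, on the libraries of the contrast alone, without co-treatment replicate 2 and, for slc31a2, without co-treatment replicate 1 or PBS replicate 3. The 2 falls were in slc39a13 and slc48a1. That of slc48a1 was lost with median-ratio scaling, with quantile normalization and on the libraries of the contrast alone. slc40a1 had 2.99, 5.14 and 4.21 FPKM in co-treatment libraries, all below the lowest PBS value of 5.19 FPKM, and did not pass (-1.52 ± 0.70, adjusted p = 0.108). slc25a35 (3.98 ± 0.24), slc46a2 (1.69 ± 0.25) and slc15a4 (1.10 ± 0.14) were higher, and slc52a3 (-2.82 ± 0.28), slc43a3 (-2.09 ± 0.20) and slc9a7 (-2.34 ± 0.28) lower than in PBS libraries.

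Co-treatment was compared with nitrite alone to see the effect of bacteria in the presence of nitrite. Of the 94 carriers 16 were higher and 18 lower, at a background of 33.9% of all genes (10.6% higher, 23.3% lower), and with median-ratio scaling 25 were higher and 15 lower (16.2% and 13.2% of all genes). With the block the counts were 23 and 26, at a background of 50.9%. This comparison shares no library with that of bacteria against PBS. Both came from 1 fit with 1 spread per gene, however, and libraries of the same replicate number deviated together. In it slc25a35 rose by 4.10 ± 0.24, slc31a1 by 1.94 ± 0.27, slc39a3 by 1.79 ± 0.23, slc30a1 by 1.66 ± 0.45 and slc46a2 by 1.64 ± 0.25 on the log2 scale, and slc52a3 (-2.88 ± 0.28), slc9a7 (-2.66 ± 0.28), slc4a11 (-2.46 ± 0.33), slc37a2 (-2.22 ± 0.37) and slc43a3 (-2.14 ± 0.20) fell. The call of slc30a1 was lost without nitrite replicate 1 or co-treatment replicate 2. Of the rises 14 were shared, which is 87.5% of the 16 with nitrite present and 82.4% of the 17 without, and of the falls 17, which is 94.4% of 18 and 77.3% of 22. The shared part of the calls over all genes was not computed, so these shares are not read as a trait of the carriers. Of the 92 transporters, 29 passed in both comparisons, 11 in 1 and 52 in neither, and these counts were not taken over all genes either.

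**Figure D4:**
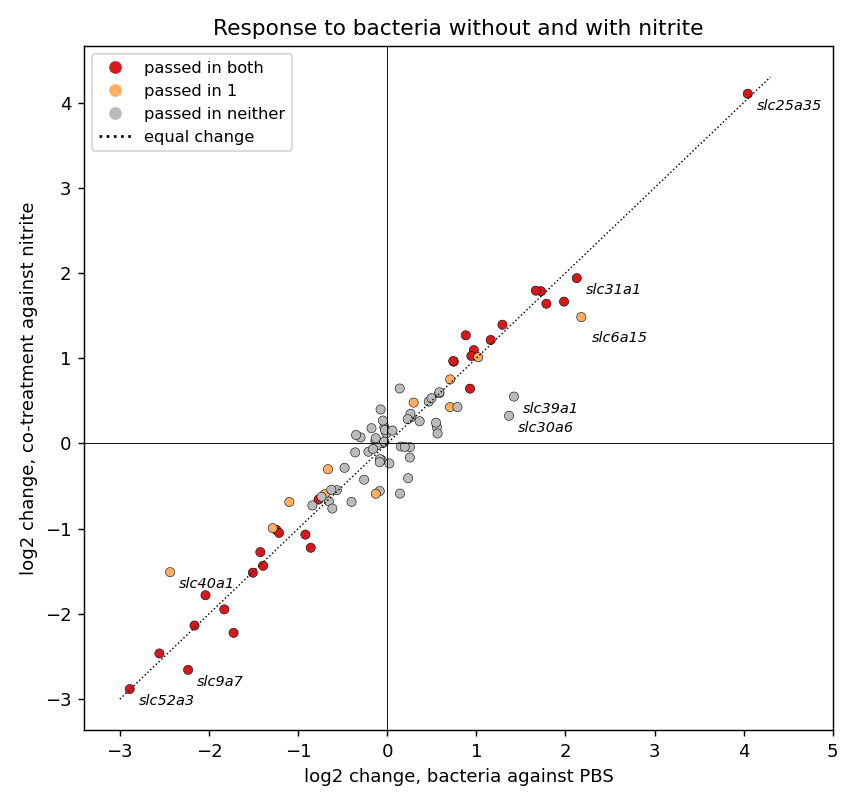
Log2 change of each of the 92 transporters for co-treatment against nitrite (vertical) plotted against that for bacteria against PBS (horizontal), both on the log2(FPKM + 1) scale, with a dotted line of equal change. Points for 29 transporters that passed in both comparisons lie near the line, and slc30a6 and slc39a1 lie to its right. The share of all genes that passed in both comparisons was not computed.

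No carrier passed for co-treatment against bacteria alone in limma, at a background of 0.00805% of all genes. None had an unadjusted p under 0.05, against 1.26% of all genes. With the replicate block 0 passed, against 0.0322% of all genes, and 2 had an unadjusted p under 0.05, against 3.48%. All co-treatment libraries lay above all bacteria libraries for 8 carriers, against 3.32% of all genes, and below them for 3, against 3.85%. The 8 were slc30a1, slc30a5, slc31a1 and slc40a1 of the metal carriers and slc22a18, slc29a3, slc33a1 and slc38a7, and the 3 were slc48a1, slc50a1 and slc9a8. slc30a1 had 47.3, 67.5 and 46.5 FPKM in co-treatment, against 28.8, 43.6 and 32.7 FPKM with bacteria, a ratio of means of 1.53 and a log2 difference of 0.60 ± 0.45 (adjusted p = 1.00). slc40a1 had 2.99, 5.14 and 4.21 FPKM in co-treatment, against 1.53, 1.76 and 1.74 FPKM with bacteria, a ratio of 2.45 and a log2 difference of 0.91 ± 0.70 (adjusted p = 1.00). These SE pool the spread of all 4 groups, in which PBS replicate 1 had 2.77 FPKM of slc30a1. They also keep the deviations by replicate number, since this fit has no block. For both genes co-treatment was higher in each pair of the same number, which follows from the lack of overlap and adds nothing to it. With the block, the lowest adjusted p of any carrier in limma was 0.632. The test of whether the effect of bacteria differed with nitrite (the interaction) called 0 of 94 carriers in limma, at a background of 0.00805% of all genes, with none at an unadjusted p under 0.05 (0.402% of all genes). With the block 0 passed, again at 0.00805%, and 1 had an unadjusted p under 0.05 (1.55% of all genes). The interaction estimate was -0.32 ± 0.63 for slc30a1, 0.93 ± 0.99 for slc40a1 and 0.06 ± 0.34 for slc25a35, and none of the 3 estimates exceeded its SE.

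Some carriers varied with the replicate number. The number is taken from the sample titles, and libraries with the same number deviated together in all groups. For each gene, the mean of the 4 libraries of each number was taken, and 19 of 94 carriers had a highest mean over 2 times the lowest. The same number was highest in all 4 groups for 27 carriers, number 3 in 19 of them, number 1 in 5 and number 2 in 3. These counts were not taken over all genes. Deviations by number were shared across all genes tested (r between 0.416 and 0.919 in 18 pairs), so the counts are not read as a trait of carriers. slc6a14, a broad amino acid transporter named here after its values were seen, had 0.41, 9.26 and 40.7 FPKM in co-treatment replicates 1, 2 and 3, 0.69, 6.65 and 47.3 FPKM with bacteria, 1.41, 18.5 and 61.8 FPKM with nitrite, and 1.82, 12.4 and 58.4 FPKM in PBS libraries. Its mean was 48.1 times higher in number 3 than in number 1, and it fell with bacteria in limma with the block alone (adjusted p = 0.0258, and 0.805 without). Without PBS replicate 1 and with the block this call was lost (-0.47 ± 0.20, adjusted p = 0.0668). slc44a4, a choline and thiamine pyrophosphate transporter relative also chosen after its values were seen, ran the other way, with 24.8, 18.4 and 4.29 FPKM with bacteria and 24.7, 10.2 and 1.86 FPKM in PBS replicates 1, 2 and 3. It passed as higher with bacteria against PBS only with the block. Without PBS replicate 1 and with the block this call held (0.83 ± 0.15, adjusted p = 0.00166 in limma). Nitrite and PBS libraries of slc40a1 showed the same order as slc44a4 (38.1, 12.6 and 4.55 FPKM with nitrite, 37.7, 11.7 and 5.19 FPKM in PBS libraries). What the number stands for is not given in the labels.

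**Figure D5:**
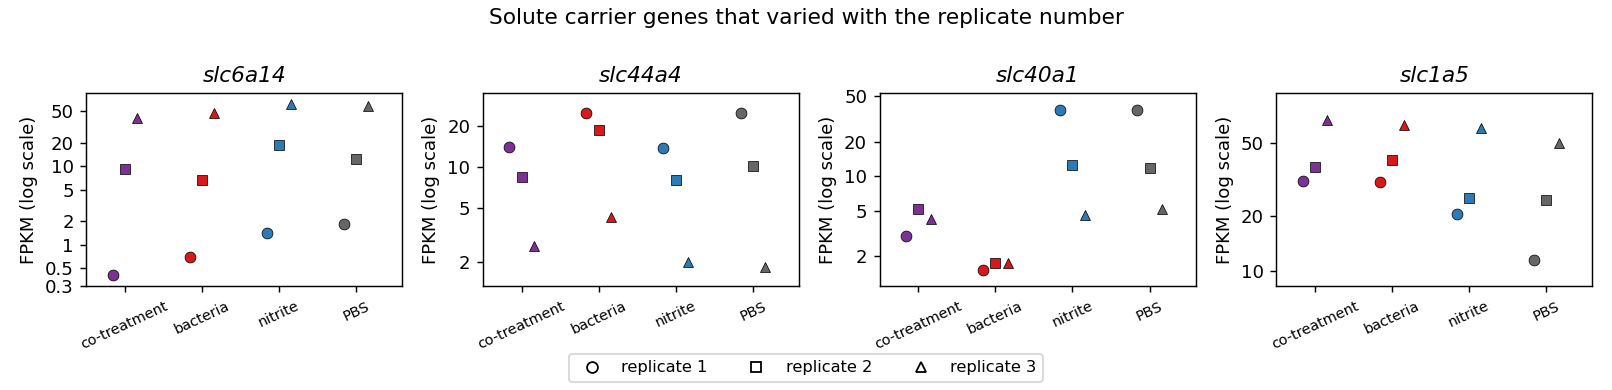
FPKM on a log scale of slc6a14, slc44a4, slc40a1 and slc1a5 in each library, by group from left to right (co-treatment, bacteria, nitrite, PBS), with the shape of each point giving the replicate number. slc6a14 runs from 0.41 FPKM in co-treatment replicate 1 to 61.8 FPKM in nitrite replicate 3.

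Other transport genes were read from lists chosen for comparison. Of 4 organic anion transporter (slco) symbols 1 was tested, the prostaglandin carrier slco2a1. It averaged 466 FPKM in co-treatment, 608 FPKM with bacteria, 6.89 FPKM with nitrite and 2.66 FPKM in PBS libraries. Its log2 change for bacteria against PBS was 7.64 ± 0.75 (adjusted p = 4.62e-05 in limma), larger than that of slc25a35. Of 13 genes of the ABC family tested, of which abce1, abcf1, abcf2 and abcf3 act in translation and are not transporters, 1 rose with bacteria (abca3, 0.89 ± 0.24) and 1 fell (abcd4, -0.88 ± 0.19). Of 24 solute carriers kept under other symbols, 5 rose and 5 fell: sfxn2, nipal3, mfsd10, mfsd11 and mfsd12 rose, and sfxn1, sfxn4, sfxn5, spns2 and mfsd8 fell. The background of 37.0% applies to each of these counts.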

How the data were processed

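The authors deposited 1 table of FPKM values for 58070 transcripts with gene symbols. Reads were processed with Trimmomatic 0.30, HISAT2 2.0.1 and HTSeq 0.6.1, per the submitters' processing notes. Genome build, annotation and FPKM software were not given in the sources used here. Without counts, the absolute depth is unknown. Steps in the low values of 9289 genes gave relative depths, which spanned 1.42-fold, with PBS replicate 1 lowest.

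FPKM of all transcripts of a symbol were added up. Genes averaging 1 FPKM or more were fitted on log2(FPKM + 1), so fold changes understate those of low genes. limma 3.58.1 in R 4.3.3 fitted all 12 libraries with a mean-variance trend, with Benjamini-Hochberg adjustment over 12423 genes and a threshold of 0.05. The fit was tested on simulated data. Errors are SE for log2 changes and SD for FPKM. The members, lists and classes were chosen with earlier results of these data known, and one symbol that matches the pattern is not reported here. Genes given were the 3 largest called rises and falls per class with at least 2 FPKM in the higher group. The 10 most abundant members were named too, as was a panel of 40 symbols of which 17 were in the table and 15 tested. Members next to the minimum level were listed once. Carriers listed for libraries that did not overlap were named for those values. The rest are said to be chosen after their values were seen, and room decided which of 49 were given at length. Class names follow family numbers.

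The titles number the replicates. For all 18 pairs with a shared number across groups, deviations from the group mean correlated across genes (r between 0.416 and 0.919), so the numbers were taken to pair the libraries. The counts and p-values given first nevertheless come from the fit without a block, and the fit with the number as a block was an alternative. The first fit leaves the deviations by number in its error and is the more cautious. Without the block 37.0% of all genes passed for bacteria against PBS, and with it 53.4%. Without it, unadjusted p was under 0.05 for 0.596% of all genes for nitrite against PBS and 1.26% for co-treatment against bacteria. Both are fewer than that threshold passes on average where nothing changes. Other alternatives were pseudocounts of 0.1 and 3 FPKM, no filter, a mean of at least 5 FPKM, median-ratio scaling, quantile normalization, the highest transcript in place of the sum, the libraries of the contrast alone, and each library left out in turn. The fit without PBS replicate 1 and with the block was added after the data were seen.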

Additional observations from a re-analysis of the deposited data

How the results depend on the processing

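Of 132 log2 changes of named genes, 111 passed the test, and 75 of these kept their call and direction in every one of the 21 alternatives run. Genes were named largely because they passed, so the 111 do not measure how often carriers passed. Over all genes 37.0% passed for bacteria against PBS, 39.0% for co-treatment against PBS and 33.9% for co-treatment against nitrite. The counts of carriers past the test moved by over 1.5 times as follows. With median-ratio scaling, 27 carriers were higher for bacteria against PBS, 30 for co-treatment against PBS and 25 for co-treatment against nitrite. With the replicate block, 27 were higher for bacteria against PBS. Without PBS replicate 1 and with the replicate block, a setting chosen after seeing the data, 28 were higher for bacteria against PBS, and for co-treatment against nitrite 28 were higher and 34 lower. The share of all genes in this setting is not given here, so its counts are not read as a trait of carriers. Under the replicate block no call of bacteria against PBS, co-treatment against PBS or co-treatment against nitrite was lost, and the gained calls are counted in the text.

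Directions turned in the following cases, all against PBS. For slc25a3, leaving out 1 library at a time gave log2 changes from -0.59 (without PBS replicate 1) to 0.54 for bacteria and from -0.61 (without PBS replicate 1) to 0.52 for co-treatment. It also took -0.49 and -0.52 without PBS replicate 1 and with the block, and -0.0050 for co-treatment with quantile normalization. slc26a2, the only called gene to reverse, took 0.14 for bacteria and 0.034 for co-treatment with the highest transcript in place of the sum. Uncalled slc38a9 ranged over left-out libraries from -0.18 to 0.25 for bacteria (0.085 without bacteria replicate 3) and from -0.22 to 0.22 for co-treatment (0.068 without co-treatment replicate 3). It took 0.18 and 0.15 without PBS replicate 1 and with the block, 0.32 and 0.29 with median-ratio scaling, and 0.0030 for bacteria with quantile normalization. Over left-out libraries, uncalled changes with bacteria ran from -0.092 to 0.18 for slc7a7 (-0.012 without PBS replicate 1), from -0.29 to 1.29 for slc44a4 and from -1.87 to 0.55 for slc6a14 (0.48 without PBS replicate 3), and with co-treatment from -0.060 to 0.52 for slc7a5. For slc7a7 the value without PBS replicate 1 and with the block was -0.00626. Apart from PBS replicate 1 and the transcripts named, the cause was not tested.

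FPKM to 2 decimals without counts limit low genes, such as slc52a3 under bacteria, and 3 libraries per group limit how small a change can pass. Libraries of unknown origin, a shifting mixture of cells, unnamed LOC genes and duplicated genes limit what a level stands for.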
